A study of Mus musculus with 24 samples.

Results

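Of 42 genes that build and run the mitotic spindle and part the chromosomes, 37 had a probe set on the arrays and 34 were bright enough to test. The whole series measured 8251 genes with a probe set of 1 symbol. The 42 came from a list of gene names, not by a rule on measured values, but with earlier results of these data known. They code for spindle motors, midzone and cytokinesis proteins, spindle assembly factors, mitotic kinases, checkpoint and centromere proteins, activators and targets of the anaphase promoting complex, regulators of the kinase Cdk1, and proteins of chromosome structure. Tpx2, Hmmr, Bub1b, Espl1 and Cdc25b had no probe set, and those of Melk, Cenpe and Ube2c were too dim.

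At mitosis Cdk1 with its cyclin drives chromosome condensation and spindle assembly. Kinesins and bundling proteins shape the spindle, checkpoint proteins on unattached kinetochores hold back the anaphase promoting complex, and that complex, once active with Cdc20, releases the enzyme that cuts sister chromatids apart. The RNAs of many of these genes rise in G2 and fall after division, so they are low in resting cells, as most alveolar type II cells of a healthy lung are. Whether the control cells measured here were resting was not tested.

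The 24 arrays held 22 arrays of 11 tumour cell lines and 2 arrays of control cells. The lines grew from lung tumours of mice, 8 months old, that carried both c-Myc and c-Raf transgenes, and were cultured with 10% calf serum through as many as 50 passages. A2C12, B3, cRAF_cMYC, gammaA7 and gammaB8 have 3 arrays each, A2B1 has 2, and betaD5, betaD10, gammaA3, gammaD1 and gammaD12 have 1 each. The control is alveolar type II cells, which make surfactant, from healthy mice without the transgenes. The sources used here state neither the age of these control mice nor the promoter that drove the transgenes. For gammaB8 the titles and the sample characteristics disagree, the characteristics reading gammaA8, and the name in the titles is used. The control cells had been freshly isolated, so transgenes, tumour origin and growth in culture cannot be told apart in any comparison with them. Whether a line's repeat arrays are separate cultures is not stated, so the spread between them may be partly technical. In the test of the 11 line means against the controls, p-values rest mostly on the spread between lines, and on the 2 controls. In the tests of single lines, of A2B1 and among the lines, they rest on the spread between repeat arrays and between the controls.

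Several arrays stood apart or did not follow their labels. After centring each probe set over the tumour arrays, replicate 1 of cRAF_cMYC correlated at 0.73 with replicate 1 of gammaA7 and at -0.03 with replicate 2 of its own line, and both replicate 2 arrays correlated at 0.832. A2B1 replicate 1 correlated best with the other A2B1 array, at 0.322, but that unnumbered array correlated best with the unnumbered B3 array, at 0.479. The unnumbered B3 array correlated at 0.0294 and 0.106 with its own replicates, and the unnumbered gammaB8 array at -0.125 and -0.191 with its own. A2B1 replicate 1 had the highest median signal of the tumour arrays, 75.5 against 53.2 to 65.5 on all others. Summed signals of 8 type II markers ran from 96.1 to 215 over tumour arrays, against 1590 on control 1 and 31000 on control 2. At most 1 of the 8 exceeded the array median on any tumour array, against 4 on control 1 and 7 on control 2. Type II cell is the name the sources give to both controls, though this signal was weak on control 1. Summed signals of 13 macrophage and myeloid markers ran from 626 to 2140 over tumour arrays, against 52400 on control 1 and 32100 on control 2. On tumour arrays 1 to 4 of these myeloid markers exceeded the array median, against 13 and 12 on the control arrays. Lymphocyte marker sums were 87.0 to 379 on tumour arrays, against 2260 and 5990 on control arrays 1 and 2, and endothelial sums were 39.7 to 130, against 837 and 2270. Fibroblast sums were 4830 to 26100 on tumour arrays, against 4640 and 2600, and club cell sums 35.2 to 12600, against 9990 and 24300. None of these marker genes had a signal of exactly 0. The part of the non-epithelial cells in the control values was not tested.

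Mitotic genes were higher in the tumour lines almost throughout. Of the 34 tested members 30 were higher in the lines, none was lower, and Nek2, Pttg1, Foxm1 and Lmnb1 were not called. A call needed an adjusted p under 0.05 (limma, Benjamini-Hochberg over all 7670 tested probe sets, 11 line means against 2 control arrays) and at least a 2-fold difference on the scale log2(signal + 32). Over all probe sets 16.5% were called higher and 21.4% lower. The members' median log2 difference was 1.94, a 3.85-fold higher level in the lines, against -0.05 over all tested probe sets. Called differences ran from 1.01 for Smc4 to 4.18 for Kif20a, with adjusted p from 0.00367 to 8.8e-08. At least 4-fold higher were 16 members, beside 3.64% of all probe sets. All 11 lines lay above both control arrays for 30 members (25.4% of all probe sets), and all 22 tumour arrays did so for 23 (18.6%). Leaving out the A2B1 arrays, the other 20 tumour arrays lay above both controls for 30 members (22% of all probe sets). A larger share of dividing cells and more RNA per dividing cell cannot be told apart in such bulk samples.

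The size of the shift depends on how arrays are put on a common scale, and its direction did not, except for Foxm1. Centring each array on its median moved the median of all probe sets to 0.54 and gave 2572 probe sets higher and 832 lower, in place of 1265 higher and 1638 lower. The members' median then stood 2.02 above that of all probe sets, and 2.14 above it after quantile normalization, where all probe sets stood at 0.18. The actin 3' to 5' ratio, a sign of RNA integrity, ran from 1.03 to 1.32 over tumour arrays, against 1.47 on control 1 and 1.64 on control 2. The same ratio for Gapdh ran from 0.74 to 0.86, against 1.17 and 1.01; the part of RNA quality in these differences was not tested. Between the control arrays 24 of the 34 members were higher on control 1, beside 50.3% of all probe sets. On the log2(signal + 32) scale Kif20a was the 1 member at least 2-fold apart between the control arrays, beside 12.4% of all probe sets. By signal without the offset, Aurka (80.5 and 29.7 on controls 1 and 2), Ttk (54.4 and 21.1) and Cks1b (526 and 256) were also more than 2-fold apart.

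**Figure D1:**
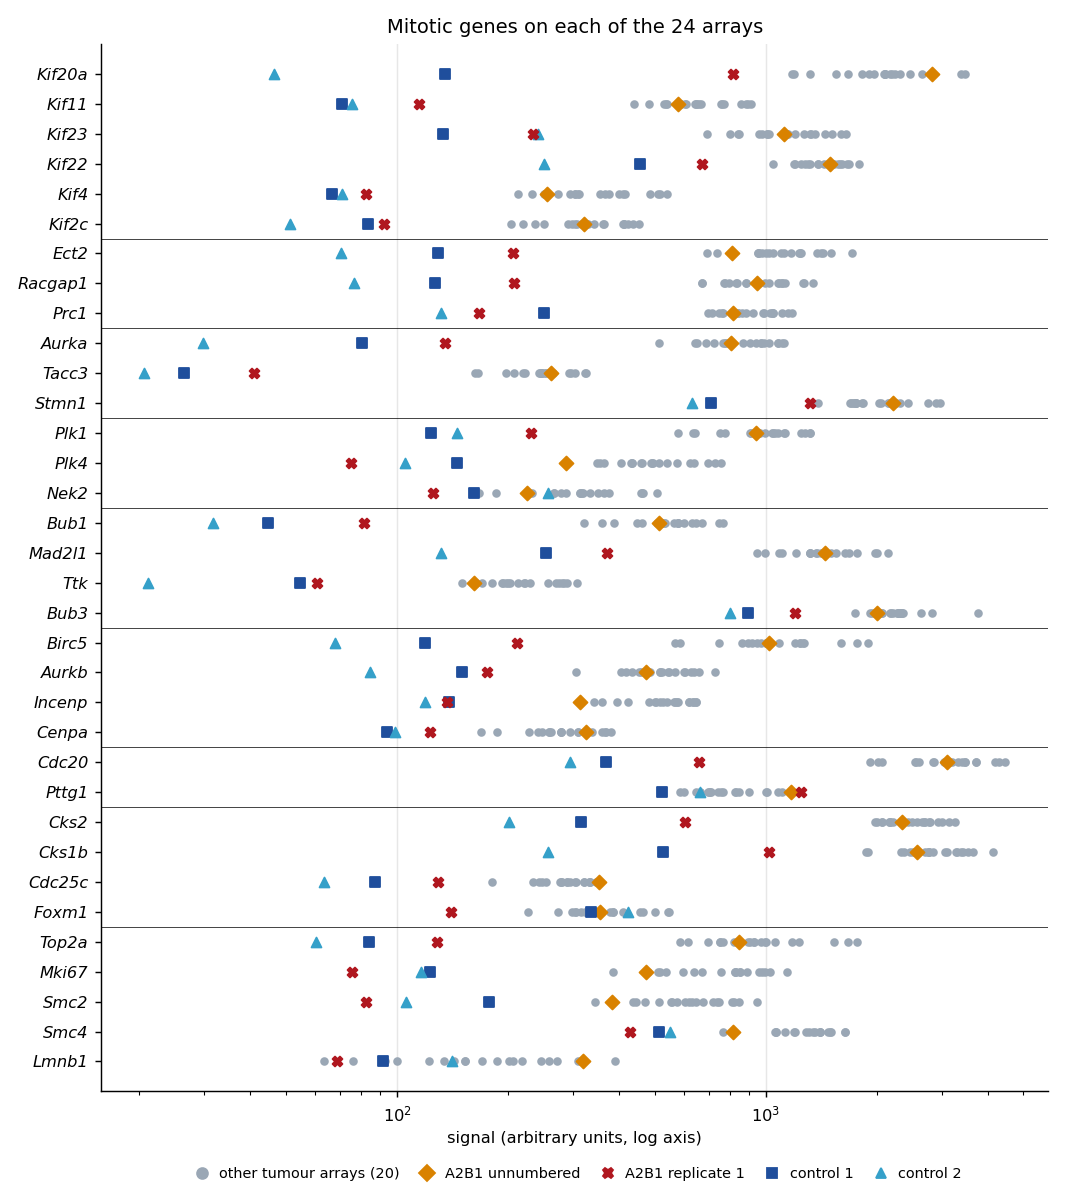
Signal of the 34 tested mitotic genes on every array (log axis, arbitrary units), grouped by role between the lines. Grey points are the 20 tumour arrays other than A2B1, orange diamonds the unnumbered A2B1 array, red crosses A2B1 replicate 1, and blue symbols the 2 control arrays. The grey points lie above both control symbols for 30 genes, and the red crosses lie near the controls for most.

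All 6 mitotic motor proteins were higher in the lines, with a median log2 difference of 2.16. Kif20a, a kinesin needed for cytokinesis, gave signals of 1180 to 3480 (median 2110) on the 20 tumour arrays other than A2B1, 2830 and 813 on the unnumbered and replicate 1 arrays of A2B1, and 135 and 46.3 on control arrays 1 and 2. Every tumour array lay above both controls. Its log2 difference was 4.18 (SE 0.35, limma adjusted p = 8.8e-08), the largest among the members, and its second probe set gave 4.34. Kif11, the motor that pushes spindle poles apart, gave 439 to 914 (median 649) on the 20 arrays, 579 and 115 on the A2B1 arrays, and 71.0 and 75.6 on the controls. The groups did not overlap, and the log2 difference was 2.63 (SE 0.30, adjusted p = 2.02e-06). Kif23, which pairs with Racgap1 at the midzone, stood at 2.38 (SE 0.31), with A2B1 replicate 1 (234) just under control 2 (241). The chromosome-bound motors Kif22 and Kif4 stood at 1.93 (SE 0.20) and 1.85 (SE 0.32), and Kif2c, which takes microtubules apart at the centromere, at 1.72 (SE 0.26).

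The 3 genes of midzone and cytokinesis were all higher in the lines. Ect2, the exchange factor that switches on RhoA at the cleavage site, gave 693 to 1720 (median 1110) on the 20 tumour arrays, 810 and 206 on the A2B1 arrays, and 129 and 70.3 on the controls. No tumour array reached down to a control, and the log2 difference was 2.95 (SE 0.33, limma adjusted p = 1.72e-06). Racgap1, its partner in the same pathway, gave 670 to 1340 (median 977) on the 20 arrays, 950 and 207 on the A2B1 arrays, and 127 and 76.5 on the controls. The groups were again apart, with a log2 difference of 2.87 (SE 0.29, adjusted p = 7.64e-07). Prc1, which bundles antiparallel microtubules, stood at 1.96 (SE 0.29), and its A2B1 replicate 1 signal of 167 lay between the controls, 250 and 132.

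The tested spindle assembly genes were higher as well, 3 of 3. Aurka, the spindle pole kinase, gave 515 to 1120 (median 888) on the 20 tumour arrays, 803 and 135 on the A2B1 arrays, and 80.5 and 29.7 on the controls. All 22 tumour arrays were above both controls, with a log2 difference of 3.24 (SE 0.34, limma adjusted p = 1.07e-06). Tacc3, which Aurka recruits to spindle microtubules, was dimmer, at 163 to 326 (median 248) on the 20 arrays, 262 and 40.9 on the A2B1 arrays, and 26.5 and 20.6 on the controls. The groups did not overlap for it either, and the log2 difference was 2.21 (SE 0.24, adjusted p = 1.4e-06). Stathmin (Stmn1), a microtubule destabiliser, averaged 2130 ± 412 in the lines (SD, n = 11 lines) and gave 711 and 630 on the controls, a log2 difference of 1.59 (SE 0.20).

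Among the mitotic and centriole kinases 2 of 3 tested genes were higher. Plk1, which acts from mitotic entry to cytokinesis, gave 578 to 1320 (median 1010) on the 20 tumour arrays, 944 and 231 on the A2B1 arrays, and 124 and 145 on the controls. The groups were apart, and the log2 difference was 2.42 (SE 0.26, limma adjusted p = 1.36e-06). Of its other probe sets, 1 was also called (2.05) and 1 was not (0.42, adjusted p = 0.152). Plk4, the kinase that starts centriole duplication, gave 349 to 758 (median 491) on the 20 arrays, 287 and 74.8 on the A2B1 arrays, and 145 and 105 on the controls. A2B1 replicate 1 lay below both controls and all other tumour arrays lay above them. The log2 difference of Plk4 was 1.56 (SE 0.33, adjusted p = 0.000781). Nek2, which helps centrosomes separate, gave 167 to 506 (median 316) on the 20 arrays, 225 and 125 on the A2B1 arrays, and 162 and 256 on the controls. These ranges overlapped, and at 0.39 (SE 0.25, adjusted p = 0.193) Nek2 was not called.

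All 4 tested spindle checkpoint genes were higher, with a median of 2.20. Bub1, a checkpoint kinase of the kinetochore, gave 321 to 764 (median 549) on the 20 tumour arrays, 513 and 81.6 on the A2B1 arrays, and 44.8 and 31.7 on the controls. No tumour array overlapped the controls, and the log2 difference was 2.84 (SE 0.31, limma adjusted p = 1.32e-06). Mad2l1, the Mad2 protein that binds and holds Cdc20, gave 945 to 2150 (median 1390) on the 20 arrays, 1450 and 372 on the A2B1 arrays, and 253 and 132 on the controls. The groups were apart for Mad2l1 too (2.62, SE 0.29, adjusted p = 1.52e-06). Ttk, the kinase at the head of the checkpoint, stood at 1.77 (SE 0.25). Bub3, which anchors Bub1, stood at 1.30 (SE 0.19) and was among the brightest members in the controls, at 898 and 799.

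Centromere and passenger complex genes were higher in 4 of 4 tested. Birc5, the survivin subunit of the passenger complex, gave 567 to 1890 (median 1020) on the 20 tumour arrays, 1020 and 212 on the A2B1 arrays, and 119 and 67.7 on the controls. Aurkb, the kinase of that complex, gave 306 to 728 (median 520) on the 20 arrays, 473 and 175 on the A2B1 arrays, and 150 and 84.6 on the controls. For both genes all tumour arrays were above both controls. The log2 differences were 2.95 for Birc5 (SE 0.34, limma adjusted p = 2.26e-06) and 1.80 for Aurkb (SE 0.22, adjusted p = 5.26e-06). Incenp, the scaffold of the complex, stood at 1.65 (SE 0.28), while its second probe set, at 0.84, stayed under the 2-fold threshold. The centromeric histone Cenpa stood at 1.24 (SE 0.19). Cenpe, a kinetochore motor, averaged 8.72 ± 4.94 in the lines (SD, n = 11 lines) and gave 3.93 and 3.04 on the controls, too dim to test.

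The anaphase promoting complex list split. Cdc20, the activator that the checkpoint restrains, gave 1920 to 4470 (median 3180) on the 20 tumour arrays, 3110 and 658 on the A2B1 arrays, and 370 and 294 on the controls. The groups did not overlap, with a log2 difference of 2.95 (SE 0.31, limma adjusted p = 1e-06). Securin (Pttg1), which inhibits separase until anaphase, gave 586 to 1110 (median 751) on the 20 arrays, 1170 and 1250 on the A2B1 arrays, and 523 and 662 on the controls. Control 2 lay within the tumour range, and at 0.42 (SE 0.22, adjusted p = 0.101) Pttg1 was not called. Ube2c, the ubiquitin-conjugating enzyme of the complex, went untested: its dim probe set gave 24.6 to 62.1 in the lines and 80.5 and 107 on the controls, with every line below both controls.

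Of the regulators of Cdk1, 3 of 4 tested genes were higher. The small Cdk-binding proteins led. Cks2 gave 1980 to 3270 (median 2540) on the 20 tumour arrays, 2340 and 605 on the A2B1 arrays, and 315 and 201 on the controls. Cks1b gave 1870 to 4130 (median 2810) on the 20 arrays, 2570 and 1020 on the A2B1 arrays, and 526 and 256 on the controls. Neither gene had a tumour array at the level of a control. Their log2 differences were 3.07 for Cks2 (SE 0.28, limma adjusted p = 2.23e-07) and 2.69 for Cks1b (SE 0.28, adjusted p = 9.1e-07). Cdc25c, a phosphatase that activates Cdk1, stood at 1.53 (SE 0.19), and at 2.82 on its second probe set.

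Foxm1, a transcription factor of G2 and mitosis genes, gave opposite pictures on its probe sets. The brighter one, which stands for the gene here, gave 227 to 547 (median 343) on the 20 tumour arrays, 356 and 140 on the A2B1 arrays, and 335 and 423 on the controls. Both controls lay inside the tumour range, and the log2 difference was -0.13 (SE 0.20, limma adjusted p = 0.59). On the dimmer probe set the lines gave 128 to 257 and the controls 10.5 and 10.7. Every line was above both controls there, at 2.40 (SE 0.21, adjusted p = 1.56e-07). A direction for Foxm1 therefore rests on the probe set, and the mean of the probe sets gave 1.14.

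Chromosome structure genes were higher in 4 of 5. Top2a, the topoisomerase that untangles sister DNA, gave 585 to 1770 (median 930) on the 20 tumour arrays, 849 and 128 on the A2B1 arrays, and 84.1 and 60.2 on the controls. All 22 tumour arrays were above both controls, with a log2 difference of 3.01 (SE 0.35, limma adjusted p = 2.63e-06). Mki67, the Ki-67 protein that coats mitotic chromosomes, gave 386 to 1140 (median 826) on the 20 arrays, 473 and 75.3 on the A2B1 arrays, and 123 and 116 on the controls. A2B1 replicate 1 was below both controls and all other tumour arrays were above them. The log2 difference of Mki67 was 2.12 (SE 0.41, adjusted p = 0.000312). A second Mki67 probe set, too dim to test, ran the other way at 8.41 to 40.3 in the lines and 68.0 and 79.4 on the controls. With the mean of both, Mki67 stood at 0.55 and was not called.

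The condensin subunits Smc2 and Smc4 stood at 1.69 (SE 0.38) and 1.01 (SE 0.27), with Smc4 at the 2-fold threshold. Lamin B1 (Lmnb1), a protein of the nuclear envelope that is taken apart at mitosis, gave 63.3 to 391 (median 161) on the 20 tumour arrays, 320 and 68.8 on the A2B1 arrays, and 91.5 and 141 on the controls. The controls lay within the tumour range, and at 0.50 (SE 0.37, limma adjusted p = 0.251) Lmnb1 was not called. Its line means had the widest range of all members once A2B1 was left out, 2.15 in log2, from gammaD12 to betaD5.

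**Figure D2:**
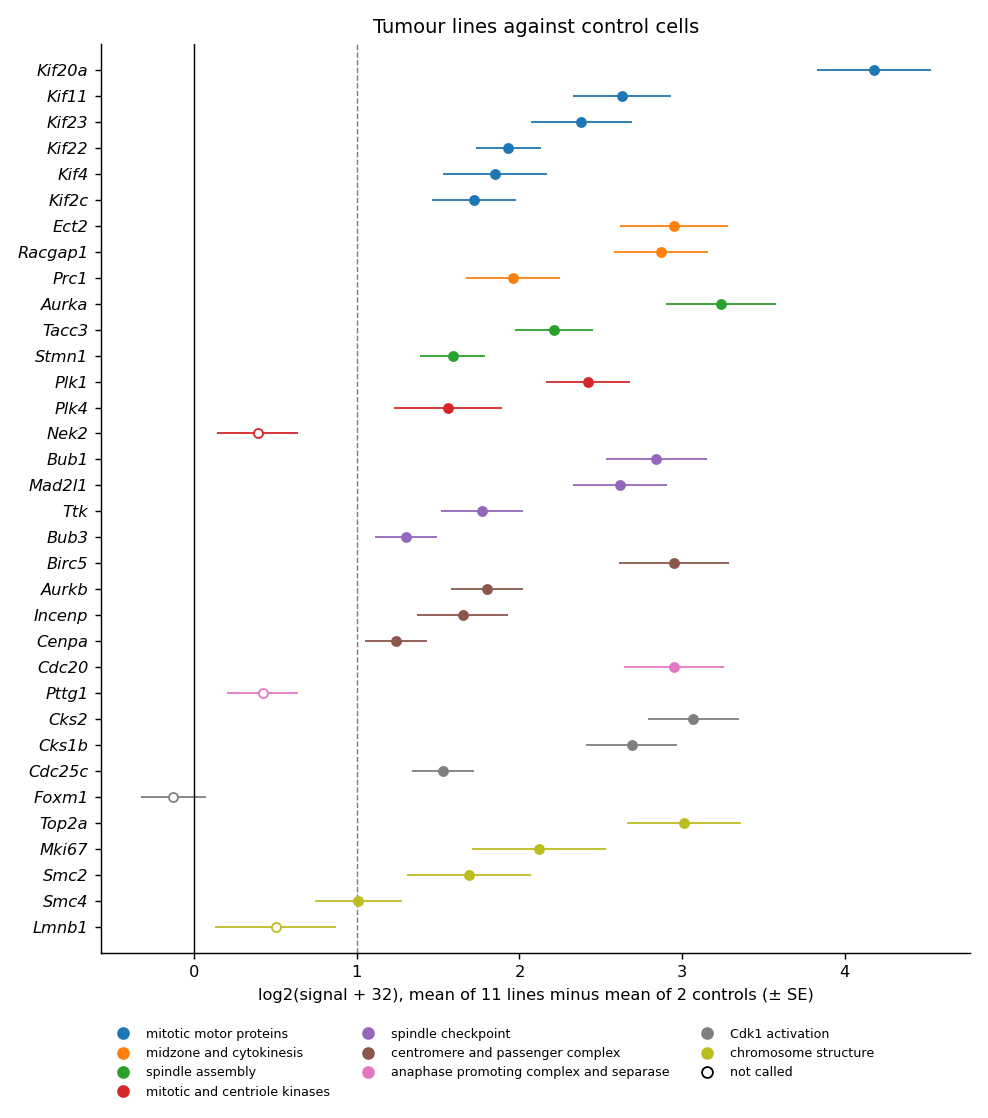
Log2 difference between the mean of the 11 tumour lines and the mean of the 2 control arrays for each tested mitotic gene, with its SE, coloured by role. Filled points were called higher, open points were not called, the solid line marks no difference and the dashed line 2-fold. Kif20a lies furthest right at 4.18 and Foxm1 alone lies left of 0, at -0.13.

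Other genes of mitosis, from 9 lists of the pathway that share no gene with the members, were higher less uniformly. Of 176 listed genes 103 had a probe set and 90 were tested. In the lines 35 were higher and 8 lower, with a median log2 difference of 0.59, beside 16.5% higher, 21.4% lower and a median of -0.05 over all probe sets. The 8 lower became 2 after centring each array. All 4 tested genes of the cyclin and Cdk1 list were higher. Cdk1, the mitotic kinase itself, stood at 4.11 (SE 0.31, limma adjusted p = 3.13e-08) and Ccnf at 1.64 (SE 0.30). Both tested condensin subunits outside the members were higher, Ncaph at 2.95 (SE 0.28) and Ncaph2 at 1.51 (SE 0.19). Other kinetochore genes were higher in 4 of 7, led by Cenpk at 1.71 (SE 0.19) and Cdca8, a passenger complex subunit, at 1.68 (SE 0.24).

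The list of anaphase promoting complex subunits had 5 of 10 genes higher, with Cdc23 at 2.65 (SE 0.21) and Anapc4 at 1.67 (SE 0.17). Among the 5 was Ube2s, a ubiquitin-conjugating enzyme rather than a subunit. Cohesin genes were higher in 2 of 6, Smc3 at 1.85 (SE 0.23) and Rad21 at 1.10 (SE 0.21). Cytokinesis genes were higher in 2 of 9, the scaffold anillin (Anln) at 3.16 (SE 0.30) and the formin Diaph3 at 1.91 (SE 0.25). None of these lists held a lower gene, and 2 of 9 is near the 16.5% of all probe sets called higher. Tubulin and centrosome genes went both ways, with 13 higher and 3 lower of 24. Kpna2, an importin, stood at 2.47 (SE 0.37), Tubb6 at 2.28 (SE 0.33), Tuba8 at -1.70 (SE 0.16) and Tubb4a at -1.23 (SE 0.23). Several tubulin probe sets are of a kind that can read near-identical family members, so single tubulins are uncertain.

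Kinesins and dynein genes outside the members were mostly not called, with 2 higher and 2 lower of 18, no more than the shares over all probe sets. The spindle motor Kifc1 stood at 2.68 (SE 0.30) and the transport motor Kif1b at 1.20 (SE 0.21), against -1.26 for Kifap3 (SE 0.18) and -1.14 for Dync1i1 (SE 0.20), which both serve transport along microtubules. The list of mitotic entry brakes and Rb-like repressors also held activators. It had 1 gene higher, the activator Mybl2, and 3 lower of 10. These counts are near the shares of all probe sets called higher (16.5%) and lower (21.4%). Mybl2, a transcription factor that activates mitotic genes, stood at 2.05 (SE 0.33), while the antiproliferative genes Btg2 and Gadd45a stood at -1.74 (SE 0.32) and -1.09 (SE 0.44, limma adjusted p = 0.038). Gadd45a averaged 187 ± 135 in the lines (SD, n = 11 lines) and gave 707 and 195 on the control arrays.

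Promoters of the members were read because so many of them moved together. The cell cycle genes homology region (CHR) is a short element bound by the complex that represses these genes in resting cells and activates them at G2, and CCAAT boxes, bound by NF-Y, often accompany it. Windows of 300 bases, 250 before and 50 after the gene start, came from RefSeq (GRCm38.p6) for 33 of the 42 members and 26992 other genes. The letters TTTGAA or TTCGAA, taken as a CHR on either strand, occurred in 72.7% of member windows and 21.6% of other genes. In the last 150 bases of the window they occurred in 69.7% of members and 9.8% of other genes. The letters CCAAT, on either strand, occurred in 78.8% of members and 41.0% of other genes, and at least 2 of them in 48.5% and 13.2%. Both motifs were present in 69.7% of members and 9.58% of other genes. The E-box CACGTG, which Myc with Max can bind, occurred in 6.06% of members and 8.09% of other genes. None of the motifs contains another, though matches may share an end base, and a match describes the letters only, not a bound site.

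The windows of 4 members with large differences are shown, with Nek2, which was not called, for comparison. Kif20a, with the largest difference, had no window. Ect2 was taken by its place in the list, since Birc5 and Cdc20 also stood at 2.95. Aurka lies at chr2:172370521-172370820 on the minus strand, Cks2 at chr13:51644982-51645281 on the plus strand, Top2a at chr11:99024140-99024439 on the minus strand, Ect2 at chr3:27153829-27154128 on the minus strand, and Nek2 at chr1:191821223-191821522 on the plus strand. Each reads 5′ to 3′ along the gene, and capitals mark CHR and CCAAT letters on either strand.
Aurka: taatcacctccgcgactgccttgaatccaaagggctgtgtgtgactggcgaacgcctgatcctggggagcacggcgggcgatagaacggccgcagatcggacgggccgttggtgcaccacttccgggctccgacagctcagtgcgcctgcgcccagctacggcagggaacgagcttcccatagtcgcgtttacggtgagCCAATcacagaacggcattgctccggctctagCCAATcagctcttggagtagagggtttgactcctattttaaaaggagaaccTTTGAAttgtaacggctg
Cks2: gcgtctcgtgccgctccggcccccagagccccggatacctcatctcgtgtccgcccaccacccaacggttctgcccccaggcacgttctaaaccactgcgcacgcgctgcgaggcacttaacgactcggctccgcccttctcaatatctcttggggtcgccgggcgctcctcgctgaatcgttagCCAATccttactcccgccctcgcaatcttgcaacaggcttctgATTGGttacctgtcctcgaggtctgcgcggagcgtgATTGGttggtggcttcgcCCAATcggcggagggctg
Top2a: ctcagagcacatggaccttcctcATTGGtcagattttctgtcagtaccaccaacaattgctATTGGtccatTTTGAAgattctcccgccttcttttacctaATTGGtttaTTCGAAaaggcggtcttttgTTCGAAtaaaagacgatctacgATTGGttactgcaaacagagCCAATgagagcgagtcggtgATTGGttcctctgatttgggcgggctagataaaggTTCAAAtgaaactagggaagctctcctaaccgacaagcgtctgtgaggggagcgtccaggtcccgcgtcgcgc
Ect2: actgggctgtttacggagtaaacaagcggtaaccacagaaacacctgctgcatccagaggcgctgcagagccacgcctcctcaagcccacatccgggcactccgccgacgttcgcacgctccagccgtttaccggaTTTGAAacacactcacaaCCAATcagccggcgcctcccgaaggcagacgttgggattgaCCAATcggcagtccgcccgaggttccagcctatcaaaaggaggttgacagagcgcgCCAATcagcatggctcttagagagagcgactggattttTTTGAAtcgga
Nek2: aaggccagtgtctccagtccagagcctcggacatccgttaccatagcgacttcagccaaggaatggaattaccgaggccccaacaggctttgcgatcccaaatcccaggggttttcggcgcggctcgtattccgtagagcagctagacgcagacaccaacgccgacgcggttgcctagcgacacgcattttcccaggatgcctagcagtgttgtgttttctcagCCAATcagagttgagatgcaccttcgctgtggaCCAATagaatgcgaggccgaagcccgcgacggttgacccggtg
Aurka held 1 CHR and 2 CCAAT boxes, Ect2 held 2 and 3, and Top2a held 4 and 6. Cks2, with a difference of 3.07 beside 3.01 for Top2a, held 4 CCAAT boxes and no CHR. Nek2 held 2 CCAAT boxes and no CHR. Birc5, Mad2l1, Melk, Plk4, Pttg1 and Tacc3 held neither motif in this window, and 4 of these 6 were called higher.

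**Figure D3:**
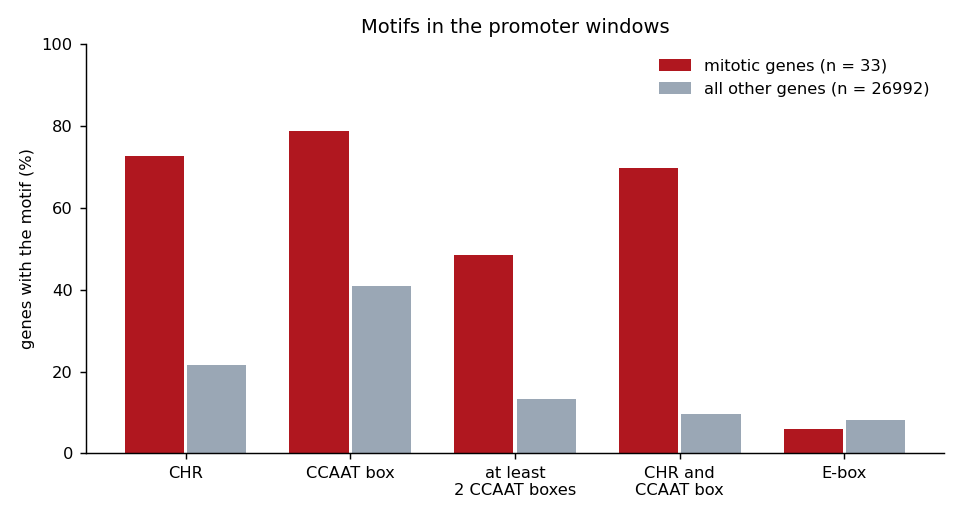
Share of genes whose promoter window holds each motif, in percent, for the 33 mitotic genes with a window (red) and all 26992 other genes (grey). The red bars are taller for CHR, CCAAT box and both together, and not taller for the E-box.

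Against the controls one line at a time, A2B1 had the fewest members higher, 21, beside 13.6% of all probe sets. A2C12, B3, betaD5, cRAF_cMYC and gammaA7 had 30 each, beside 18.1%, 17.4%, 16.8%, 16.9% and 16.7% of all probe sets in that order. In gammaA3, gammaB8 and gammaD1 29 members were higher, beside 16.6%, 16.9% and 16.2%, and in betaD10 and gammaD12 28 were, beside 15.7% and 15.6%. These 11 comparisons share both control arrays. Members higher in every line numbered 19, beside 6.79% of all probe sets, and this count was 27 when A2B1 was represented by its unnumbered array and 3 when by replicate 1. Median log2 levels over the 34 members were 8.55 in A2B1 and ran from 9.30 in betaD10 to 10.02 in A2C12. B3 held the highest line mean for 9 members, A2C12 for 8 and betaD5 for 7. A2B1 held the lowest for 25 by mean signal and for 29 by mean log2 level, and with A2B1 left out betaD10 did so for 15 and gammaD12 for 14. No share over all probe sets is given for these counts of highest and lowest lines. In betaD5, betaD10 and gammaD12 the line mean is a single array, not an average. The test among the 11 lines (moderated F in limma, 12 residual degrees of freedom) passed 0 members after Benjamini-Hochberg adjustment, beside 3.42% of all probe sets. At an unadjusted p under 0.05 it passed 11, beside 21.4% of all probe sets. The lowest adjusted p was 0.0525, for Pttg1. Without A2B1 the members' line means spanned a median of 0.88 in log2, against 0.79 over all probe sets. Among the 6 lines with 2 or 3 arrays the test passed 7 members, beside 10.4% of all probe sets, and with A2B1 represented by replicate 1 alone it passed 25, beside 10.3%. The 6 lines with 2 or 3 arrays and the 2 controls set the error in that test.

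Between line means of log2 levels Top2a spanned 2.17, and 1.38 with A2B1 left out. It was highest in A2C12, on whose arrays it gave 1530, 1670 and 1770. Birc5 was also highest in A2C12, while Kif20a was lowest there, with a mean signal of 1300, and highest in betaD5, at 3480. Across line means the median Pearson correlation over all pairs of members was 0.71 with all 11 lines and 0.438 with A2B1 left out, against 0.004 over all pairs of tested probe sets both times. These points share array scaling, and cRAF_cMYC and gammaA7 share look-alike arrays, so the correlation is a description.

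**Figure D4:**
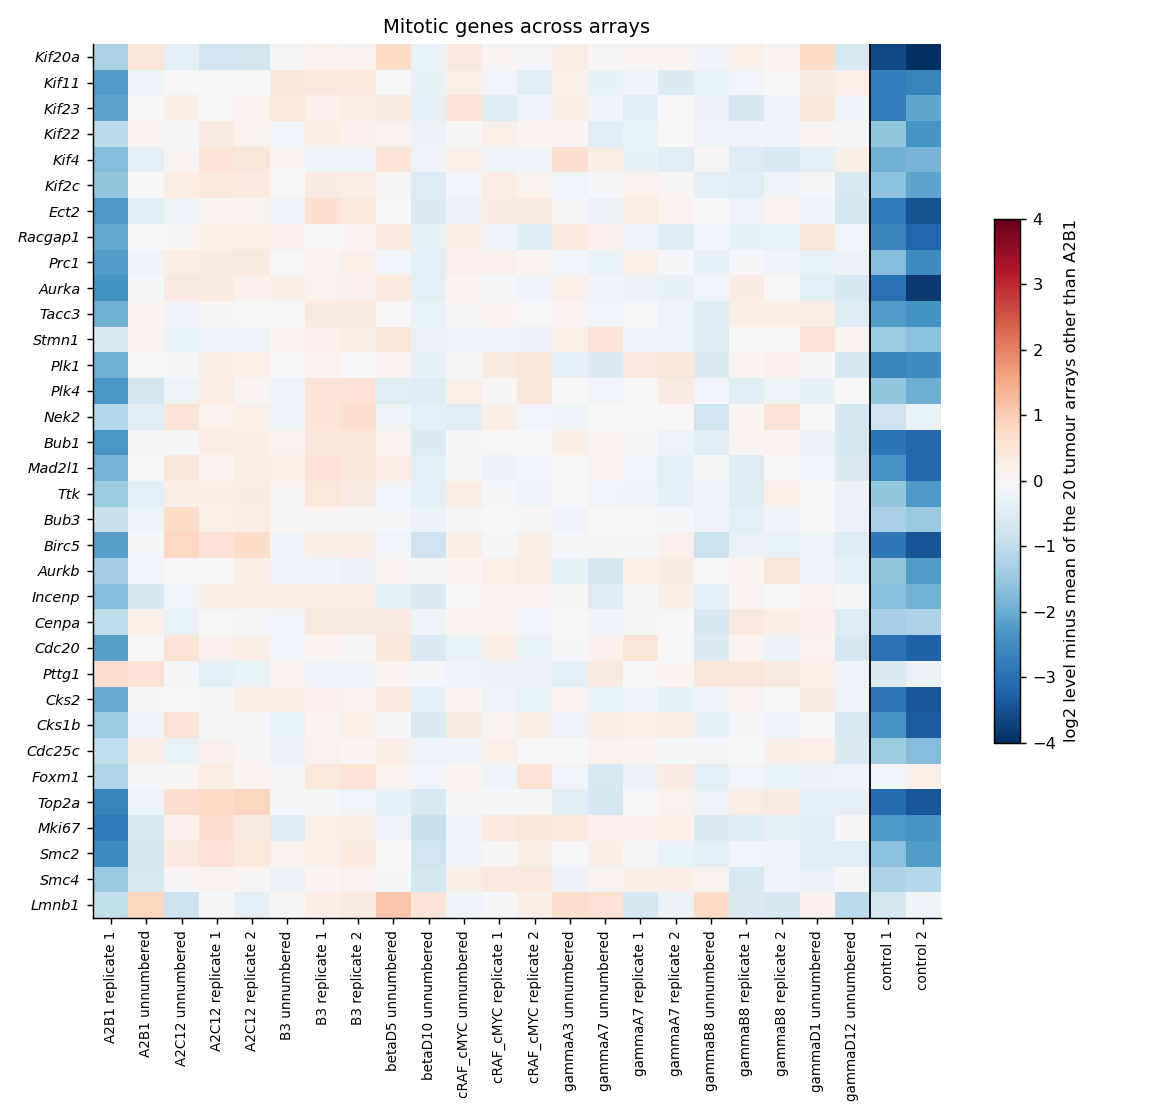
Each tested mitotic gene (rows, by role) on each array (columns, controls at the right), as log2(signal + 32) minus the gene's mean over the 20 tumour arrays other than A2B1. Blue is lower and red higher. The replicate 1 array of A2B1, at the far left, is blue for all genes except Pttg1, as are most genes on the controls.

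A2B1 was the line with the lowest levels, and 1 of its 2 arrays carried that. The median log2 level of the members was 7.53 on A2B1 replicate 1 and 9.71 on its unnumbered array, against 9.30 to 10.14 on the other 20 tumour arrays and 7.37 and 7.16 on the controls. On replicate 1, 33 members were lower than on the unnumbered array and 29 were at least 2-fold lower, beside 5.66% of all probe sets. For 32 members replicate 1 was the lowest of the 22 tumour arrays, beside 16.1% of all probe sets. It lay above both controls for 24 members, between them for 3 and below both for 7. On the other 20 tumour arrays 31 to 34 members lay above both controls and 0 to 2 below both. No share over all probe sets is given for these counts or for the 33. Within the other lines with repeat arrays, no pair of arrays had more than 2 members at least 2-fold apart on the log2(signal + 32) scale. For gammaA7 replicate 2 against its unnumbered array, a pair with 2 such members, 357 of all 7670 probe sets were higher and 283 lower.

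**Figure D5:**
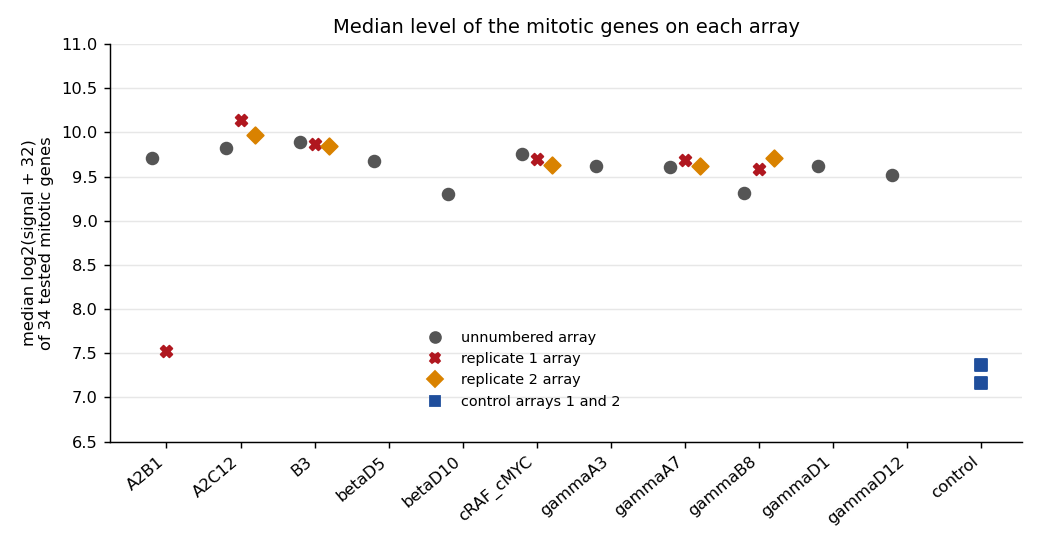
Median log2(signal + 32) of the 34 tested mitotic genes on each array, by line, with the controls at the right. Circles are unnumbered arrays, crosses replicate 1, diamonds replicate 2 and squares the controls. A2B1 replicate 1, at 7.53, sits near the controls at 7.37 and 7.16, and all other tumour arrays sit between 9.30 and 10.14.

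The drop within A2B1 spanned every role. Top2a gave 128 on replicate 1 and 849 on the unnumbered array, Tacc3 gave 40.9 and 262, and Bub1 gave 81.6 and 513. Smallest were the drops of Stmn1 (1320 and 2210), Bub3 (1200 and 2010), Nek2 (125 and 225) and Smc4 (429 and 816), each under 2-fold. Securin was the exception, with 1250 on replicate 1 and 1170 on the unnumbered array, both above all 20 other tumour arrays. Among the pathway lists Cdk1 gave 744 on replicate 1 and 3600 on the unnumbered array, and Mybl2 gave 13.6 and 134. Ccnb2, a mitotic cyclin, gave 1240 and 1900, and the kinetochore protein Zwint gave 2780 and 3540. Gadd45a went the other way, at 921 and 222, as did Btg2 at 959 and 532. Their list did not move as a whole. Of its other tested genes Btg1 (373 and 223) and E2f5 (63.3 and 44.4) were also higher on replicate 1. Lower there, like Mybl2, were Rbl1 (103 and 229), Lin9 (39 and 120), Cdc25a (112 and 218), E2f1 (51.1 and 87.3) and Wee1 (40.4 and 44).

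Against the other 10 lines 8 members were called lower in A2B1 and none higher, beside 0.952% of all probe sets lower and 1.4% higher. They were Mki67 (-1.65, SE 0.35, limma adjusted p = 0.0172), Smc2 (-1.46, SE 0.30), Plk4 (-1.45, SE 0.29), Ect2 (-1.26, SE 0.32), Kif11 (-1.24, SE 0.31), Incenp (-1.16, SE 0.22), Kif4 (-1.11, SE 0.26) and Cks2 (-1.06, SE 0.29). The members' median difference was -0.92, against 0.03 over all probe sets. Without cRAF_cMYC and gammaA7, whose arrays resembled each other, 3 were called lower in A2B1. With the unnumbered array alone the median was -0.04 and 0 members were called, while 0.0261% of all probe sets were called lower. With replicate 1 alone it was -1.79 and 28 were called, beside 5.79% of all probe sets. Plk4 and Incenp were the 2 members whose unnumbered A2B1 signals, 287 and 314, also lay below all 20 other tumour arrays. Pttg1 stood at 0.64 (SE 0.14, adjusted p = 0.0214), short of 2-fold.

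On A2B1 replicate 1 the actin 3' to 5' ratio was 1.32, against 1.03 to 1.26 on all other tumour arrays, while the Gapdh ratio, 0.80, lay within their range of 0.74 to 0.86. Summed lymphocyte markers were 379 there, against 87.0 to 225 on the other tumour arrays, and summed endothelial markers were 130, against 39.7 to 114. Type II markers summed to 215, against 96.1 to 192, and the myeloid sum of 1740 lay within the range of the others. Most of these signals were dim. On replicate 1, 2 of 10 lymphocyte, 0 of 7 endothelial and 0 of 8 type II markers exceeded the array median. That median, 75.5, was itself the highest of the tumour arrays. The signal of Myc was 85.8 on replicate 1 and 361 on the unnumbered array, beside a mean of 338 over all lines. Control 1 gave 283 for Myc and control 2 gave 79.8, though mitotic levels were low on both controls. The part of any of these in the lower mitotic levels was not tested.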

How the data were processed

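Single-channel Affymetrix arrays measured RNA of 11 tumour lines (22 arrays) and of control type II cells (2 arrays). The authors deposited 1 linear intensity per probe set and array, from GCOS per the submitters' processing notes. Their mean after trimming 2% at each end was 250 on every array, so a level is read against the rest of its array. The sources used here give no background correction or filter. The number of arrays limits the precision.

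Of 12422 probe sets, without 66 array controls, 10833 had 1 gene symbol in the platform annotation, 396 several and 1193 none. The 7670 probe sets above their array's median on at least 2 arrays were tested on the log2(signal + 32) scale in limma 3.58.1 (R 4.3.3), with Benjamini-Hochberg adjustment over all of them. The offset compresses differences near the floor. A gene stands for its brightest probe set over all arrays. Line means were fitted against the controls (11 residual degrees of freedom), and 12 group means were fitted to all arrays (12 residual degrees of freedom) for single lines, A2B1 and the F-test. Both fits were also run on simulated data with independent arrays or lines. Look-alike arrays, as in cRAF_cMYC and gammaA7, and controls of unlike make-up were not simulated, so that run does not cover them.

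The members, the pathway and marker lists and the tests were chosen with earlier results of these data known. Full values are given for the 2 members with the largest difference per role, those not called and those with the widest line range; lists name up to 2 called genes per direction. Genes named outside that rule, such as Ccnb2, Zwint and Myc, were chosen after their values were seen. Alternatives covered scaling, offset, filter, probe set choice, variance model, fold threshold, left-out arrays and lines, and the replicate number as a block. Leaving out cRAF_cMYC and gammaA7 was added after seeing the data. Replicate numbers were not taken as pairs, which would have needed every same-numbered pair of arrays to have correlated deviations over 0.1: 17 of 25 did, and the lowest was 0.0203. Promoter letters were searched with Python 3.11.15, and figures drawn with matplotlib 3.10.9.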

Additional observations from a re-analysis of the deposited data

Results flagged for a closer look

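In A2B1 8 members differed from the other 10 lines by limma's test of that difference. The log2 differences were -1.24 for Kif11, -1.11 for Kif4, -1.26 for Ect2, -1.45 for Plk4, -1.16 for Incenp, -1.06 for Cks2, -1.46 for Smc2 and -1.65 for Mki67. All 8 were lower on A2B1 replicate 1 than on its unnumbered array, and none was called with the unnumbered array alone.

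Foxm1 had a signal on a probe set that the comparison of brightest probe sets does not use. On its dimmer probe set the lines stood above both controls by a log2 difference of 2.40, while the brighter probe set stood at -0.13. Which of them reads the gene's RNA better was not tested.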

How the results depend on the processing

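The count of 30 members higher in the lines ran from 28 to 33 over all alternatives other than the 4-fold threshold, with none lower in any. After centring each array the members' median was 2.56, and Pttg1, Nek2 and Lmnb1 were called (1.14, 1.03 and 1.08). Foxm1 turned positive after centring (0.56), with the mean of probe sets (1.14) and without control 2 (0.03; it was -0.28 without control 1). Mki67 lost its call with the mean of probe sets (0.55).

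At a 4-fold threshold 16 members and 9 pathway genes were higher and 0 pathway genes lower. The 8 pathway genes lower became 2 after centring, 13 with an offset of 1, 2 with an offset of 100 and 18 with no fold threshold.

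The test among lines, which passed 0 members, passed 1 after quantile normalization, 2 with an offset of 100, 1 with no filter, 1 with the stricter filter, 7 over lines with 2 or 3 arrays, and 0 to 2 with single lines left out. Without A2B1 replicate 1 it passed 0 and without the unnumbered A2B1 array 25. Members lower in A2B1 than in other lines, 8 as reported, were 0 without its replicate 1, 28 without its unnumbered array and 3 without cRAF_cMYC and gammaA7. Members higher in every line, 19 as reported, ran from 3 without the unnumbered A2B1 array to 27 without its replicate 1. The cause of these changes was not tested beyond the arrays left out.

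With the replicate number as a block, 30 members were higher in the lines, 1 passed the test among lines and 6 were lower in A2B1. A single value per probe set and array, and 2 controls unlike each other, limit all of these.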
